A study of Mus musculus with 12 samples.

Results

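The genes described here encode the calcium switch of the striated muscle thin filament, namely the troponin T genes Tnnt1 and Tnnt3, the troponin I genes Tnni1 and Tnni2, the troponin C genes Tnnc1 and Tnnc2 and the tropomyosin genes Tpm1, Tpm2 and Tpm3. They were taken by name from the table of TPM, transcript abundances scaled to a common total per library, which gave 9 of its 36008 gene ids, and all 9 passed the filter on low values that left 10481 genes. Every skipped exon and every mutually exclusive exon pair assigned to these 9 genes in the splicing tables was added. That gave 49 of 2423 events in the gastrocnemius, of which 48 passed the read filter, and 48 of 2416 events in the quadriceps, of which 47 passed.

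Tropomyosin is a coiled coil that lies along actin and blocks myosin at rest, and the troponin complex moves it aside when calcium arrives. In that complex troponin C binds the calcium, troponin I holds the filament in the blocked state, and troponin T ties the complex to tropomyosin. Slow and fast muscle fibres use different genes for each subunit: Tnnt1, Tnni1 and Tnnc1 are the slow members, Tnnt3, Tnni2 and Tnnc2 the fast members, and Tpm3 is the tropomyosin typical of slow fibres. The Tnnt3 transcript is also spliced in many combinations, both near its 5′ end, where a row of short exons encodes an acidic stretch, and near its 3′ end, where exons 16 and 17 replace each other.

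The study compared mice flown on the International Space Station with ground mice kept in the same housing hardware at the Kennedy Space Center. RNA came from the gastrocnemius, a calf muscle, and the quadriceps, a thigh muscle, of 3 ground mice (M02, M03 and M08) and 3 flight mice (M11, M12 and M20), so each mouse gave 1 library per muscle and each of the 4 groups held 3 libraries. All mice were female, 30 weeks old when the 9 weeks of exposure began, and had received injections of phosphate-buffered saline as the control arm of an osteoporosis drug study. The strain is C57BL/6 in the sample labels and BALB/c in the methods of the study, and it was not settled here. Both muscles were dissected from the left hind limb of carcasses that had been frozen, after removal of the right hind limb, and thawed, and whole muscle was extracted, so fewer fibres of a type and less RNA per fibre cannot be told apart.

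By the GENCODE vM21 annotation of GRCm38 (mm10), 3 of the genes lie on chromosome 7. Tnnt1 occupies chr7:4504570-4516382 on the minus strand, and Tnni2 at chr7:142441808-142444410 and Tnnt3 at chr7:142498836-142516009 are neighbours on the plus strand. Tnni1 lies at chr1:135779434-135810989 and Tnnc1 at chr14:31208312-31211729, both on the plus strand, and Tnnc2 at chr2:164777161-164779967 on the minus strand. Of the tropomyosins, Tpm1 at chr9:67022590-67049406 and Tpm2 at chr4:43514711-43523765 are on the minus strand and Tpm3 at chr3:90072649-90100902 is on the plus strand. Events were found for Tnnt3, Tnnt1, Tpm1 and Tpm2, with no event of Tnni1, Tnni2, Tnnc1, Tnnc2 or Tpm3 in the tables used here.

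The alternative exons on which the splicing results turn are shown first, as the sense strand of the GRCm38 transcripts annotated by GENCODE vM21. In the first set, the short coding exons near the 5′ end of Tnnt3 and the alternative exon of Tnnt1, capitals mark whole codons for the acidic residues glutamate and aspartate in the annotated frame. Exons are numbered along the gene, with F the name the study uses for the exon between 8 and 9.
Tnnt3 exon 4, chr7:142502740-142502757: aacaatacGAAGAGGAAg
Tnnt3 exon 5, chr7:142504048-142504065: agGAGgcccaaGAGGAAg
Tnnt3 exon 6, chr7:142504250-142504264: aagtccagGAGGAAg
Tnnt3 exon 7, chr7:142505288-142505299: cccccGAAccag
Tnnt3 exon 8, chr7:142505516-142505530: agGAAgtccaaGAAg
Tnnt3 exon F, chr7:142507750-142507788: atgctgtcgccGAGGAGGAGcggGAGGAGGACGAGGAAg
Tnnt1 exon 5, chr7:4513581-4513613, minus strand: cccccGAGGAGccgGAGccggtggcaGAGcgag
These exons are between 12 and 39 bases long and each is a whole number of codons, so any combination keeps the reading frame. Exon F holds 8 acidic codons among 12 whole codons, whereas exons 4 and 5 hold 3 of 5 each, exons 6 and 8 hold 2 of 4 each, and exon 7 holds 1 of 3. Tnnt1 exon 5 holds 4 of 10.

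The second set is the pair of 41-base exons that exclude each other near the 3′ end of Tnnt3, with capitals at the bases that differ between them at the same position, and the exon of the same length in Tnnt1 below them without capitals.
Tnnt3 exon 16, chr7:142513665-142513705: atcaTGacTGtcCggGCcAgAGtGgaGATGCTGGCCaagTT
Tnnt3 exon 17, chr7:142514326-142514366: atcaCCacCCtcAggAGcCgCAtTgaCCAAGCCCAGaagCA
Tnnt1 41-base exon, chr7:4507383-4507423, minus strand: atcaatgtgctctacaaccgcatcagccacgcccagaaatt
Exons 16 and 17 carry the same base at 18 of 41 positions and differ at 23. The Tnnt1 exon matches exon 17 at 25 of 41 positions and exon 16 at 13 of 41. No annotated Tnnt3 transcript that spans the pair holds both: of 22 such transcripts, 7 hold exon 16 and 14 hold exon 17.

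The libraries were those of skeletal muscle. The 8 genes taken as skeletal muscle markers, such as Ckm, Des and Ttn, summed to between 24721 and 29208 TPM per library, while the heart genes Nppa, Nppb and Myl7 were each listed at under 1 TPM on average in every group. Of the 6 heart genes read, 2 passed the filter on low values, Myh6 among them. TPM keeps no sequencing depth. The tables sum to between 923295 and 966638 TPM per library, and the quadriceps library of ground mouse M08 has 18172 genes above 0 against 20291 to 21265 in the others. Junction reads over all events totalled between 777760 and 1246850 per sample, and the lowest sample, the third of the quadriceps ground group, had no reads at 79 events. The splicing tables do not name the samples within a group, so their order could not be matched to mice and PSI values are given by list position. With 3 mice a group, every p-value reflects the spread among these mice only.

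On the ground, the fast troponins and Tpm1 were among the most abundant transcripts of both muscles. In the gastrocnemius Tnnt3 averaged 14670 ± 123 TPM (SD, n = 3), rank 13 of all genes, followed by Tpm1 at 12037 ± 173 TPM, Tnnc2 at 8998 ± 297 TPM, Tnni2 at 8143 ± 368 TPM and Tpm2 at 4470 ± 498 TPM. The slow members were far lower, with Tnnt1 at 357 ± 40.9 TPM, Tnnc1 at 242 ± 23.3 TPM, Tpm3 at 242 ± 23.2 TPM and Tnni1 at 94.4 ± 9.33 TPM. The ranges of neighbours in this order did not overlap except for Tnnc1 and Tpm3. The quadriceps kept the fast part of the order, with Tnnt3 at 21224 ± 865 TPM and rank 8, Tpm1 at 16588 ± 971 TPM, Tnnc2 at 12815 ± 699 TPM, Tnni2 at 11903 ± 451 TPM and Tpm2 at 4193 ± 374 TPM, with overlap between Tnnc2 and Tnni2. There Tnnt1, Tpm3 and Tnnc1 overlapped one another, with means of 320 ± 150 TPM, 250 ± 112 TPM and 222 ± 93.2 TPM, and Tnni1 was lowest at 70.1 ± 27.1 TPM. Together the 9 genes made up 5.33 ± 0.0804% of the library TPM in the gastrocnemius on the ground and 5.88 ± 0.228% after flight, against 7.06 ± 0.316% and 7.71 ± 0.0481% in the quadriceps, and in each muscle the flight range lay above the ground range.

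**Figure D1:**
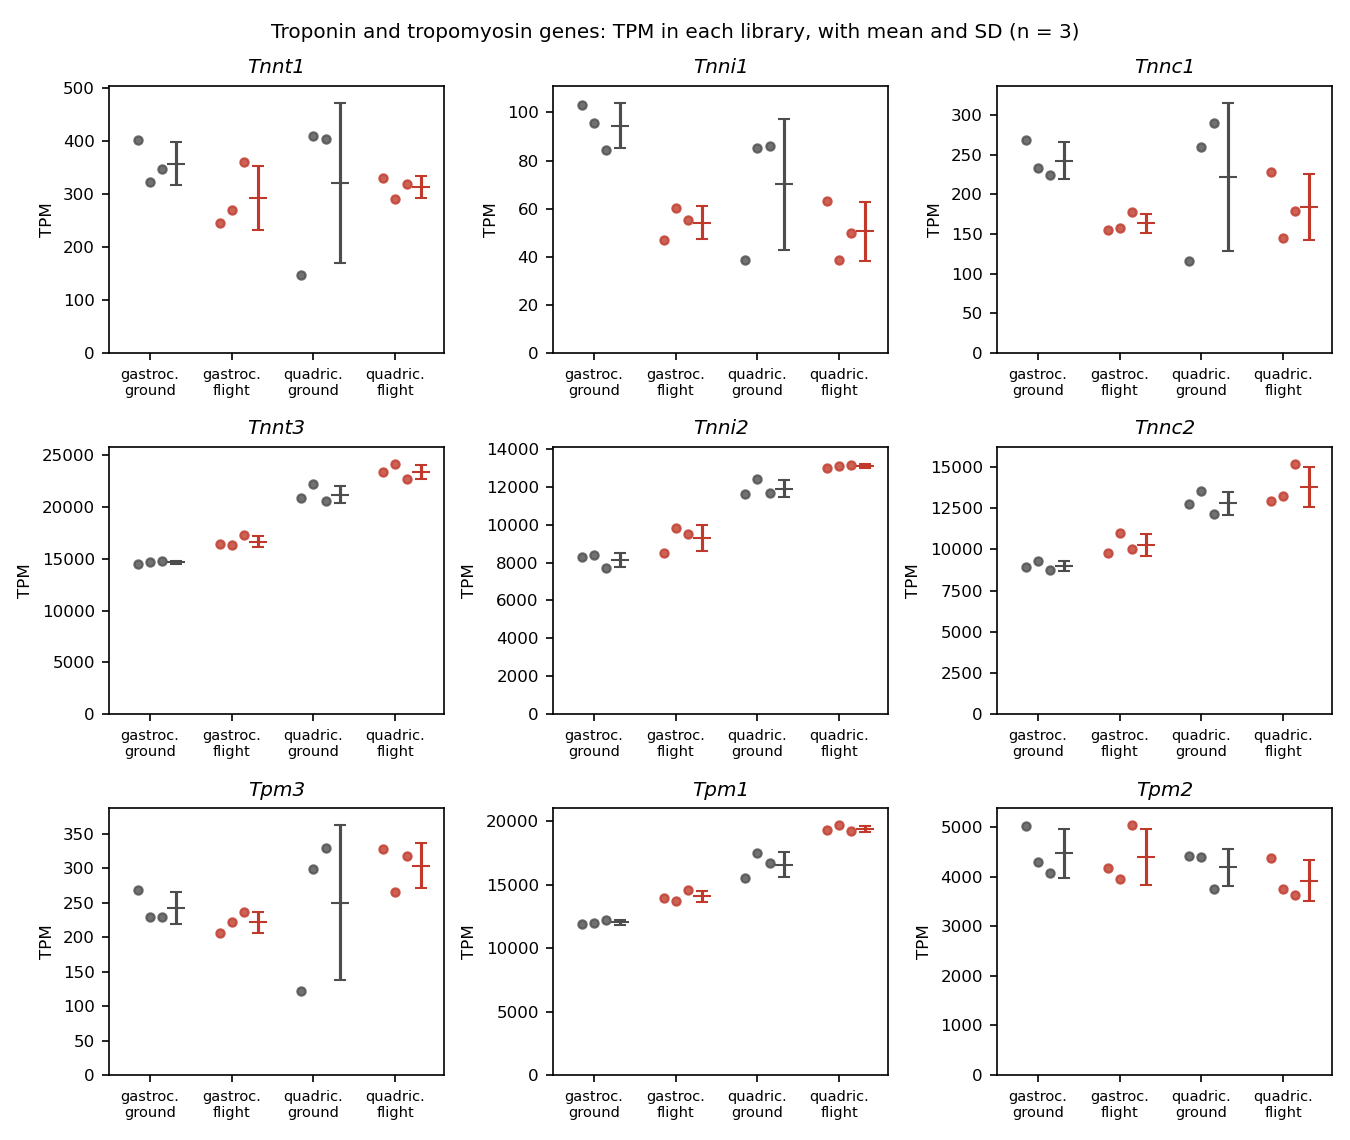
TPM of each of the 9 genes (vertical axes, each from 0) in the 12 libraries, with the 4 groups along the horizontal axis; points are libraries, and the bar beside them is the mean with the SD (n = 3). Tnni1 and Tnnc1 lie lower in all 3 gastrocnemius flight libraries than in the 3 ground libraries, and 1 quadriceps ground library lies far below the other two for Tnnt1, Tnnc1 and Tpm3.

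The first question was whether flight changed the level of the slow troponins. Tnni1, the slow troponin I, stood at 103, 95.7 and 84.5 TPM in the ground gastrocnemius of M02, M03 and M08 and at 46.8, 60.3 and 55.5 TPM in the flight gastrocnemius of M11, M12 and M20. Every flight library was below every ground library. The fold was 0.577, a log2 fold change of -0.79 ± 0.12 (SE), which ranked 28 of 10481 genes by p but missed the threshold (limma on log2(TPM + 1), adjusted p = 0.0706). Without flight mouse M11 the log2 fold change was -0.69 and Tnni1 passed, at an adjusted p of 0.0377 by the same model. That fit also called more of all genes than the fit with M11. Over the fits that each left out 1 gastrocnemius library, the adjusted p of Tnni1 ran from 0.0377 to 0.275. In the quadriceps Tnni1 stood at 38.8, 85.3 and 86.1 TPM on the ground and at 63.0, 38.8 and 49.98 TPM after flight. Those groups overlapped through ground mouse M02 (log2 fold change -0.40 ± 0.33, adjusted p = 0.673).

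Tnnc1, the slow troponin C that slow fibres share with the heart, followed the same order. It stood at 269, 234 and 225 TPM in the ground gastrocnemius and at 156, 158 and 178 TPM after flight, without overlap. The fold was 0.679 (log2 fold change -0.56 ± 0.095, adjusted p = 0.0978 by limma), rank 47. In the quadriceps it stood at 116, 260 and 290 TPM on the ground and at 228, 145 and 179 TPM after flight, again with M02 lowest of the ground mice and the groups overlapping (log2 fold change -0.18 ± 0.35, adjusted p = 0.875).

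Tnnt1, the slow troponin T, differed least of the slow troponins. It stood at 402, 321 and 347 TPM in the ground gastrocnemius and at 245, 270 and 359 TPM after flight, so the groups overlapped through flight mouse M20 (log2 fold change -0.31 ± 0.15, adjusted p = 0.384). In the quadriceps it stood at 147, 409 and 404 TPM on the ground and at 331, 291 and 318 TPM after flight. The ground mouse M02 was the lowest of the 6 libraries and the other ground mice the highest, so the fold of 1.08 (log2 fold change 0.11 ± 0.38, adjusted p = 0.937) rested on 1 library.

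That library, the quadriceps of ground mouse M02, decided the sign or size of the slow genes in the quadriceps. Without it the quadriceps log2 fold changes were -0.38 for Tnnt1 (adjusted p = 0.519), -0.78 for Tnni1 (adjusted p = 0.538) and -0.60 for Tnnc1 (adjusted p = 0.547) by limma, with no member called. The summed TPM of 13 other slow fibre genes moved with it, at 1157 TPM in M02 against 1881 and 1955 TPM in M03 and M08, and so did the adipocyte genes, at 574 TPM against 378 and 313 TPM. The part of either in these results was not tested.

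Read as shares of their own pair, in which the scaling of the library cancels, the slow troponins took up less of the gastrocnemius total after flight. Tnni1 made up 1.08 to 1.23% of Tnni1 plus Tnni2 on the ground and 0.547 to 0.610% after flight. Tnnc1 made up 2.44 to 2.93% of its pair on the ground and 1.42 to 1.74% after flight, and Tnnt1 made up 2.14 to 2.69% and 1.47 to 2.03%. All 3 shares were separated between the groups in the gastrocnemius, although Tnnt1 itself overlapped there. A share is also lower where the fast gene of the pair is higher, and Tnnt3 was higher after flight by a fold of 1.14. In the quadriceps, where M02 was the lowest of the ground mice in each pair, the ground ranges of 0.333 to 0.732%, 0.896 to 2.33% and 0.697 to 1.92% for troponin I, C and T overlapped the flight ranges of 0.294 to 0.483%, 1.09 to 1.73% and 1.19 to 1.39%. These shares are given as a description, with no test of their own and no figure over all genes to set beside them.

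**Figure D2:**
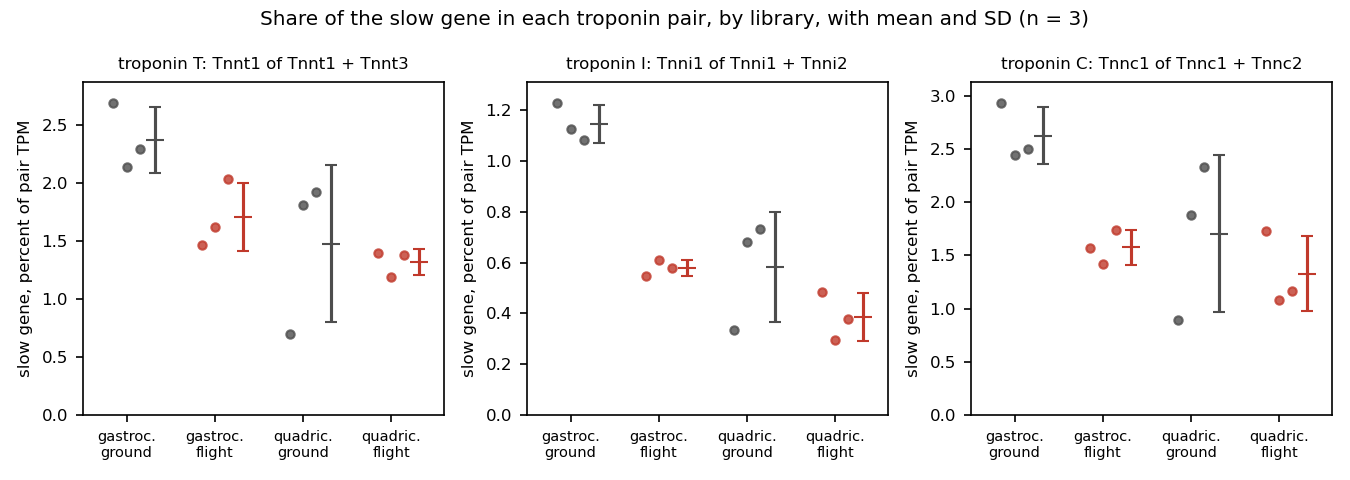
Percent of each troponin pair's TPM that came from the slow gene (vertical axes from 0), by group along the horizontal axis; points are libraries, and the bar is the mean with the SD (n = 3). In the gastrocnemius the flight libraries lie below the ground libraries in all 3 pairs, with troponin I at 0.547 to 0.610% against 1.08 to 1.23%, while the quadriceps groups overlap.

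The fast troponins were slightly higher after flight in the gastrocnemius. Tnnt3, the fast troponin T, stood at 14529, 14720 and 14760 TPM on the ground and at 16410, 16321 and 17311 TPM after flight. No flight library overlapped the ground libraries, and the fold was 1.14 (log2 fold change 0.18 ± 0.061, adjusted p = 0.245 by limma). Tnni2, the fast troponin I, stood at 8294, 8411 and 7724 TPM on the ground and at 8519, 9816 and 9535 TPM after flight, a fold of 1.14 (log2 fold change 0.19 ± 0.078, adjusted p = 0.321), and M11 was only just above the ground mice. Tnnc2, the fast troponin C, stood at 8910, 9328 and 8755 TPM and at 9791, 11013 and 10033 TPM, also without overlap (fold 1.14, log2 fold change 0.19 ± 0.072, adjusted p = 0.284).

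The quadriceps differences of the fast troponins were of similar size. Tnnt3 stood at 20865, 22211 and 20597 TPM on the ground and at 23374, 24131 and 22753 TPM after flight, without overlap (fold 1.10, log2 fold change 0.14 ± 0.072, adjusted p = 0.520). Tnni2 stood at 11613, 12423 and 11672 TPM and at 12994, 13126 and 13163 TPM, with the flight libraries close together and above every ground library (log2 fold change 0.14 ± 0.066, adjusted p = 0.501). Tnnc2 stood at 12777, 13533 and 12136 TPM and at 12974, 13238 and 15166 TPM, and overlapped (log2 fold change 0.10 ± 0.088, adjusted p = 0.688). For Tnnc2, 59% of the 31-base words of its transcripts also occur in a Ube2c transcript on the opposite strand, so reads could be shared between them in principle.

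Tpm1, the most abundant tropomyosin, showed the same fold in both muscles. In the gastrocnemius it stood at 11885, 12000 and 12226 TPM on the ground and at 13977, 13750 and 14563 TPM after flight, a fold of 1.17 (log2 fold change 0.23 ± 0.061, adjusted p = 0.190 by limma). In the quadriceps it stood at 15549, 17471 and 16744 TPM and at 19285, 19681 and 19219 TPM, again a fold of 1.17 (log2 fold change 0.23 ± 0.074, adjusted p = 0.378). Flight and ground libraries did not overlap in either muscle.

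Tpm2, the second tropomyosin of striated muscle, showed no such shift. It stood at 5030, 4303 and 4077 TPM in the ground gastrocnemius and at 4185, 3957 and 5034 TPM after flight (log2 fold change -0.03 ± 0.12, adjusted p = 0.935), and at 4423, 4395 and 3761 TPM and at 4384, 3760 and 3622 TPM in the quadriceps (log2 fold change -0.10 ± 0.10, adjusted p = 0.757). The groups overlapped in both muscles. Tpm3 stood at 269, 229 and 228 TPM in the ground gastrocnemius and at 205, 221 and 237 TPM after flight (log2 fold change -0.13 ± 0.094, adjusted p = 0.549), and at 121, 299 and 329 TPM and at 327, 266 and 317 TPM in the quadriceps (log2 fold change 0.40 ± 0.36, adjusted p = 0.704). The quadriceps value for Tpm3 again turned on M02, without which it was -0.05, and 27% of the 31-base words of Tpm3 are shared, chiefly with the copy Tpm3-rs7.

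As shares of the tropomyosin total, Tpm1 made up 71.9 ± 2.47% in the ground gastrocnemius and 75.4 ± 1.74% after flight, and 78.9 ± 1.49% and 82.1 ± 1.52% in the quadriceps. The ranges overlapped in the gastrocnemius (69.2 to 74.0% against 73.4 to 76.7%) and met at 80.4% in the quadriceps. Tpm3 made up 1.38 to 1.56% in the ground gastrocnemius and 1.12 to 1.24% after flight, whereas in the quadriceps its ranges of 0.604 to 1.58% and 1.12 to 1.37% overlapped, with a higher mean after flight (1.28% against 1.18%).

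**Figure D3:**
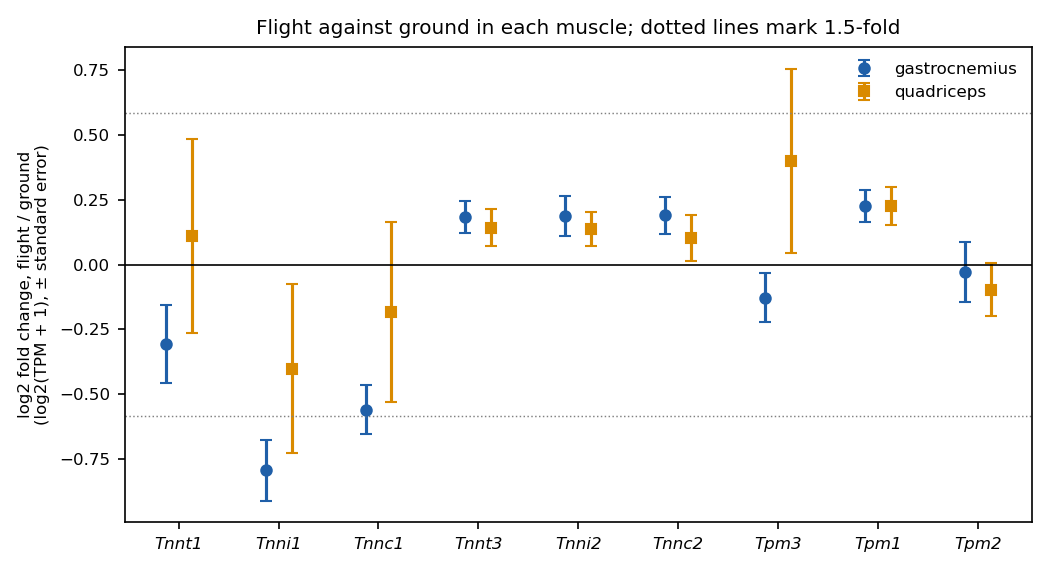
Log2 fold change of flight over ground for the 9 genes along the horizontal axis (vertical axis, on the log2(TPM + 1) scale), with circles for the gastrocnemius, squares for the quadriceps and bars for ± 1 standard error; dotted lines mark 1.5-fold. Tnni1 at -0.79 lies beyond the lower line in the gastrocnemius, and the quadriceps bars of Tnnt1, Tnni1, Tnnc1 and Tpm3 are the widest.

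Counted against all genes tested, no member passed an adjusted p of 0.05 with a change over 1.5-fold in either flight comparison by limma, where 0.229% of genes were called in the gastrocnemius and 0.0286% in the quadriceps. At an unadjusted p under 0.05 the gastrocnemius had 4 members higher, where 8.52% of all genes met that mark, and 2 lower, against 6.55%. The same 4 and 2 did not overlap between groups, for which the figures over all genes were 12.5% higher and 8.55% lower. In the quadriceps 1 member, Tpm1, was higher at an unadjusted p under 0.05 (5.66% of all genes), and 3 did not overlap and were higher (9.24% of all genes). The median log2 fold change of the members was -0.03 in the gastrocnemius and 0.11 in the quadriceps, beside 0.02 and 0.01 over all genes tested. When TPM was rescaled by median ratios, 4 and not 6 members in the gastrocnemius had an unadjusted p under 0.05 by limma, Tnni2 and Tnnc2 being those that did not, and the directions of the 9 members did not change in either muscle.

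The flight effect was then compared between the muscles, with each mouse as a block. No gene of 10481 was called in this comparison by limma (0%, with 5.09% at an unadjusted p under 0.05), and no member had such a p, the nearest being Tpm3 at a difference of -0.53 ± 0.39 (adjusted p = 0.968). For Tnni1 the difference was -0.39 ± 0.38 (adjusted p = 0.976) and for Tpm1 0.0004 ± 0.081 (adjusted p = 0.999). The separation of Tnni1 in the gastrocnemius and its overlap in the quadriceps are therefore not shown to differ.

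Between the muscles on the ground, the fast troponins and Tpm1 were lower in the gastrocnemius than in the quadriceps. The log2 differences, gastrocnemius minus quadriceps, were -0.53 ± 0.058 for Tnnt3 (adjusted p = 0.00588), -0.55 ± 0.061 for Tnni2 (adjusted p = 0.00588), -0.51 ± 0.070 for Tnnc2 (adjusted p = 0.00839) and -0.46 ± 0.058 for Tpm1 (adjusted p = 0.00661), by limma with the mouse as a block. Each was lower in 3 of 3 mice without overlap of the libraries. All 4 stayed under 1.5-fold and so were not called, in a comparison that called 3.2% of genes. Over all genes, 10.1% were lower at that adjusted p and 28.3% were lower without overlap. The median gene was itself lower by 0.12 on the log2 scale in the gastrocnemius, and after rescaling by median ratios the 4 differences were -0.41, -0.42, -0.38 and -0.34 (adjusted p between 0.0236 and 0.0437). With no filter on low TPM their adjusted p was 0.136 for Tnnt3, 0.0877 for Tnni2, 0.118 for Tnnc2 and 0.154 for Tpm1. Without either library of ground mouse M03 none of the 4 passed (adjusted p between 0.0531 and 0.0667), without those of M08 Tnnc2 and Tpm1 did not pass (0.0530 to 0.0582), and without those of M02 Tnnc2 did not pass (0.0529 and 0.0532).

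The slow members and Tpm2 did not differ between the ground muscles beyond their spread. The difference was 0.51 ± 0.27 for Tnni1 (adjusted p = 0.244), 0.29 ± 0.30 for Tnnt1 (adjusted p = 0.548), 0.23 ± 0.27 for Tnnc1 (adjusted p = 0.599), 0.08 ± 0.27 for Tpm3 (adjusted p = 0.870) and 0.09 ± 0.10 for Tpm2 (adjusted p = 0.580). Without ground mouse M02 they were 0.07 for Tnni1, -0.28 for Tnnt1, -0.26 for Tnnc1 and -0.45 for Tpm3.

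Other genes of the sarcomere were read beside them. Of 13 further slow fibre genes, 3 were called lower in the gastrocnemius with flight by limma, where 0.114% of all genes were called lower. They were Myl2 (log2 fold change -1.33, adjusted p = 0.0361) and Myl3 (-0.90, adjusted p = 0.0361), light chains of slow myosin, and Atp2a2 (-0.88, adjusted p = 0.0361), the slow calcium pump. Of the 13, 11 were lower, with a median of -0.56, and their sum ran from 1698 to 2294 TPM on the ground and from 1078 to 1149 TPM after flight. In the quadriceps none of the 13 was called by limma, 3 were lower at an unadjusted p under 0.05 (5.18% of all genes) and the median was -0.26. Actn2, an actinin of the Z-disc, was called higher in the gastrocnemius than in the quadriceps on the ground (0.63, adjusted p = 0.00751 by limma), as were 0.973% of all genes. None of 11 fast fibre genes was called in either flight comparison by limma, with medians of 0.04 and 0.01. At an unadjusted p under 0.05 there were 2 in each muscle, 1 higher and 1 lower. Over all genes that share was 15.1% in the gastrocnemius and 10.8% in the quadriceps. Between the ground muscles 2 of them, Mylpf at -0.87 and Pvalb at -0.66, were lower in the gastrocnemius.

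Of 18 other thin filament genes 16 passed the filter, and none was called with flight by limma, with 4 at an unadjusted p under 0.05 in the gastrocnemius (15.1% of all genes) and 2 in the quadriceps (10.8% of all genes). The smallest p in the gastrocnemius belonged to Neb, the nebulin ruler of the thin filament, at 0.27 ± 0.065 (adjusted p = 0.156), and the next to Cfl2, a muscle cofilin that severs actin, at -0.37 ± 0.13 (adjusted p = 0.271). Between the ground muscles Actc1 at -0.85 and Capza2 at -0.60 were called lower in the gastrocnemius, against 2.22% of all genes. Lmod2 at 0.62 was called higher, against 0.973%. Of 11 splicing regulators 10 passed the filter and none was called with flight by limma, with 3 at an unadjusted p under 0.05 in the gastrocnemius and 2 in the quadriceps, beside the same 15.1% and 10.8% of all genes. Rbfox2 stood at 0.56 ± 0.088 (adjusted p = 0.0774) and Rbfox1 at 0.21 ± 0.075 (adjusted p = 0.272) in the gastrocnemius.

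Markers of other cells were read for the same libraries. Smooth muscle genes, which matter here because smooth muscle also uses tropomyosins, summed to 195 to 222 TPM in the ground gastrocnemius and 223 to 253 TPM after flight, and to 151 to 166 and 152 to 209 TPM in the quadriceps. Adipocyte genes were lower in all 5 tested members in the flight quadriceps (median -1.08, none called by limma, 5 at an unadjusted p under 0.05, where 5.18% of all genes were lower at that mark). On the ground Adipoq, Cidec and Fabp4 were called lower in the gastrocnemius than in the quadriceps, as were 2.22% of all genes. Of 6 heart genes 2 passed the filter, and heart, endothelium, blood, tendon and macrophage genes had 0 called with flight by limma and 0 at an unadjusted p under 0.05. The 8 skeletal muscle markers and the 6 smooth muscle genes tested also had 0 called, with 3 and 1 of them at an unadjusted p under 0.05 in each muscle. Over all genes that share was 15.1% in the gastrocnemius and 10.8% in the quadriceps. Their part in the results was not tested.

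Across the 12 libraries likeness of pattern was read as Pearson's r of log2(TPM + 1) over 12 libraries that share mice and muscles. The 2 genes most like Tnnt3 were Tpm1 (r = 0.983) and Anp32e (0.982), those most like Tnni2 were Tnnt3 (0.979) and Tnnc2 (0.973), those most like Tnnc2 were Arl3 (0.982) and Scp2 (0.981), and those most like Tpm1 were Serbp1 and Trdn (both 0.984). Among the slow members, the nearest to Tnni1 were Tnnc1 (0.912) and Myoz2 (0.862), to Tnnc1 Tnni1 (0.912) and Myl3 (0.907), and to Tnnt1 Myh6 (0.966) and Myh7 (0.964). The nearest to Tpm3 were Myh7 (0.956) and Tnnt1 (0.858). For Tpm2 the nearest were B4galt5 (0.902) and Srxn1 (0.796), while its r with the other members ran from -0.50 to 0.28.

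Splicing was read as percent spliced in (PSI), the share of junction reads, corrected for length, that include an exon, or for an exon pair the share that use the exon first in the transcript. An event was called at an adjusted p under 0.05 with a PSI difference over 0.05, tested by limma on log2 ratios of the reads that include and leave out the exon. The events of the 9 genes are not independent. The 43 events of Tnnt3 rest on 23 distinct exons or exon pairs and reuse the same junctions, and for counting by exon the event with the most reads was taken for each.

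No event of these genes was called with flight by limma in either muscle, where 0.378% of events were called in the gastrocnemius and 0% in the quadriceps. In the gastrocnemius 12 of 48 events had an unadjusted p under 0.05 and 12 did not overlap between the groups, while over all events the figures were 9.49% and 16.2%. In the quadriceps 11 of 47 had an unadjusted p under 0.05 and 11 did not overlap, over all events 7.61% and 12.5%. With 1 event per exon or pair, 7 of 27 met each mark in each muscle. The median absolute PSI difference of the members' events was 0.0287 in the gastrocnemius and 0.0328 in the quadriceps, smaller than the 0.0441 and 0.0540 over all events tested. Precision weights were also tried, which weight each observation by the precision of its log2 ratio, set by its inclusion and skipping reads together. With them 3 of 48 member events passed in the gastrocnemius, where 1.7% of all events then passed, and 5 of 47 in the quadriceps, where 0.873% did. These weighted calls share reads: the 5 in the quadriceps are 3 views of exons 16 and 17, exon 6 between 5 and 8, and the pair 6 and 8. Of 25 annotated transcripts that span the pair 6 and 8, 9 hold both exons. In the gastrocnemius the 3 are Tnnt3 exon 7 between 5 and 9, exon 8 between 5 and 9 and the pair 12 and 13. The exon 7 difference was -0.122 (adjusted p = 0.0382 by limma with these weights), named after its values were seen.

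Near the 5′ end of Tnnt3, exons F, 8 and 4 had lower PSI on average after flight in both muscles, and exon 6 between 5 and 8 had higher PSI, in the events with the most reads for each exon, none of them past the adjusted threshold. Other events of these exons, with other flanking exons, did not all lie the same way. Exon F, the 39-base exon printed above with the most acidic codons, had PSI in the gastrocnemius of 0.105, 0.0691 and 0.107 on the ground and 0.0303, 0.0379 and 0.0550 after flight when read between exons 5 and 9. The groups did not overlap, and the difference was -0.0524 (adjusted p = 0.266 by limma) on a mean of 239 junction reads per sample. In the quadriceps exon F stood at 0.191, 0.174 and 0.175 on the ground and 0.185, 0.144 and 0.122 after flight, a difference of -0.0293 with overlap (adjusted p = 0.892, mean of 90.7 reads).

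Exon 8, with 2 acidic codons, was read in more than 1 context. Between exons 7 and 9, its deepest event, PSI was 0.356, 0.311 and 0.288 in the ground gastrocnemius and 0.278, 0.260 and 0.266 after flight, without overlap (difference -0.0501, adjusted p = 0.568 by limma). In the quadriceps the same event differed by -0.0260 (adjusted p = 0.845). Between exons 5 and 9, an event chosen after its values were seen, PSI was 0.843, 0.801 and 0.848 on the ground and 0.712, 0.651 and 0.772 after flight in the gastrocnemius (difference -0.119, adjusted p = 0.233), and 0.907, 0.904 and 0.912 and 0.878, 0.825 and 0.801 in the quadriceps (difference -0.0728, adjusted p = 0.546). It was lower in every flight sample than in every ground sample of both muscles. With precision weights it had an adjusted p of 0.0158 by limma in the gastrocnemius.

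Exon 4 is the first of the row. In the quadriceps its PSI between exons 3 and 5 was 0.289, 0.237 and 0.297 on the ground and 0.217, 0.184 and 0.174 after flight, without overlap (difference -0.0825, adjusted p = 0.537 by limma). In the gastrocnemius it was 0.349, 0.288 and 0.285 and 0.270, 0.255 and 0.315, with overlap (difference -0.0276, adjusted p = 0.803).

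Exon 6, with 2 acidic codons, lay in the other direction when read between exons 5 and 8. Between exons 5 and 8 its PSI in the quadriceps was 0.370, 0.391 and 0.433 on the ground and 0.481, 0.553 and 0.602 after flight, a difference of 0.147 (adjusted p = 0.537 by limma), and every flight sample was above every ground sample. In the gastrocnemius it was 0.473, 0.520 and 0.446 and 0.545, 0.596 and 0.484, higher on average by 0.0620 but overlapping (adjusted p = 0.652). Between exons 5 and 9 the same exon was lower by 0.0838 in PSI in the gastrocnemius (adjusted p = 0.463), an event chosen after its values were seen. With precision weights the quadriceps event between 5 and 8 had an adjusted p of 0.00242 by limma. The pair of exons 5 and 8 was also read, between 4 and 9. In the gastrocnemius its PSI was 0.452, 0.465 and 0.456 on the ground and 0.555, 0.596 and 0.566 after flight (difference 0.114, adjusted p = 0.352 by limma). The quadriceps difference was 0.0328 (adjusted p = 0.921). Of 25 annotated transcripts that span this pair, however, 14 hold both exons and 1 holds exon 8 alone. Reads joining exon 4 straight to exon 8 in the gastrocnemius numbered 0, 1 and 0 on the ground and 6, 4 and 2 after flight. This PSI is therefore not read as a choice between exons 5 and 8.

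Several of these events share the reads that join exon 5 straight to exon 9 and so leave out exons 6, 7, 8 and F together. In the gastrocnemius 119, 120 and 126 such reads were counted on the ground and 339, 325 and 268 after flight. As a share of the reads that enter exon 9 from exon 5, 6 or 7 they made up 9.54, 9.26 and 7.74% on the ground and 12.7, 12.8 and 9.37% after flight, so the groups overlapped. In the quadriceps the share was 4.66, 4.44 and 3.50% on the ground and 4.13, 4.18 and 4.33% after flight. Reads at the 5′ end of Tnnt3 were themselves more frequent after flight in the gastrocnemius, where the exon 4 event held 28.4 to 41.5% as many reads as the exon 17 event on the ground and 45.4 to 55.3% after flight, without overlap, against 20.2 to 24.4% and 23.7 to 25.6% in the quadriceps. The part of this coverage difference in the 5′ events was not tested.

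**Figure D4:**
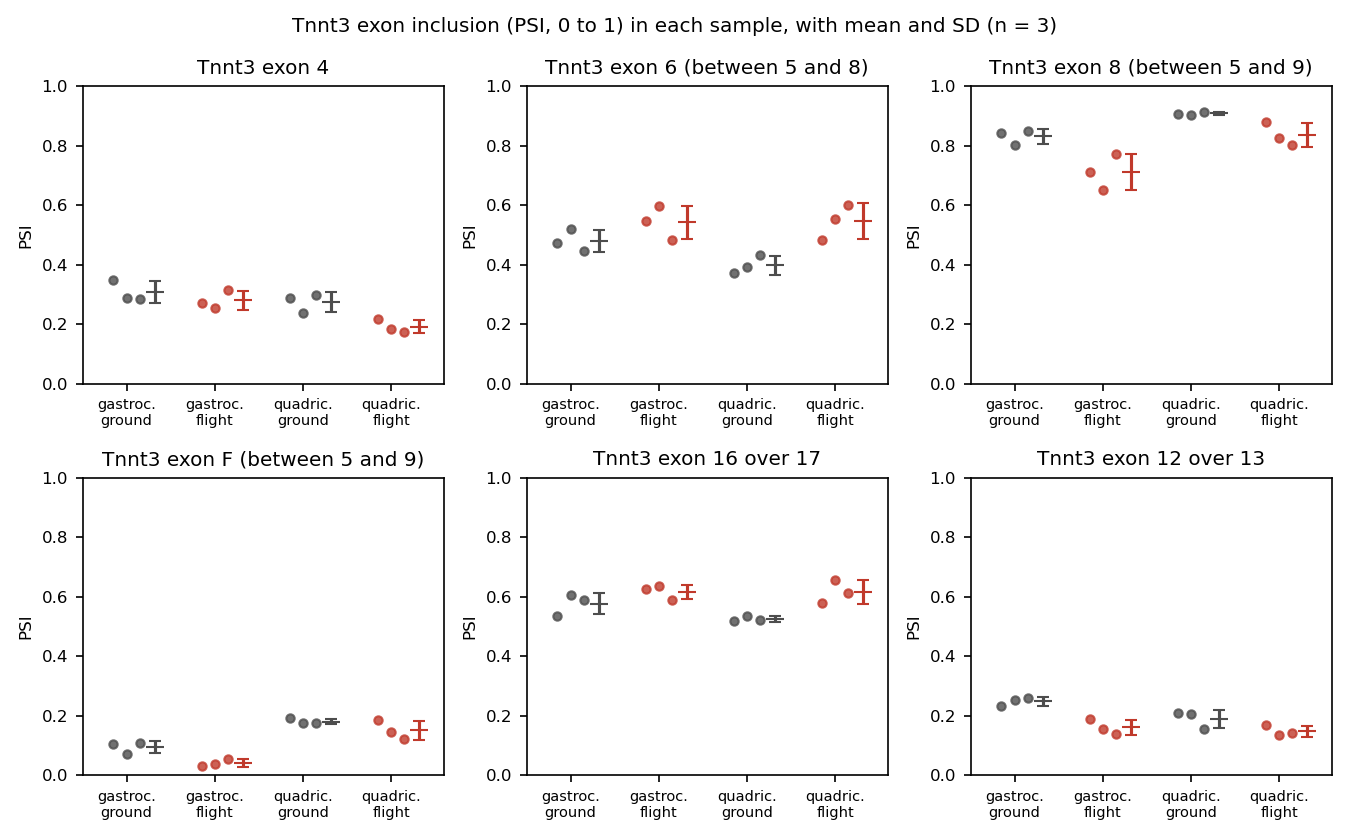
PSI (vertical axes, 0 to 1) of 6 Tnnt3 events in each sample of the 4 groups along the horizontal axis, with the mean and SD (n = 3); for pairs, PSI is the share of the first exon named. Exon 8 between 5 and 9 lies lower after flight in both muscles, while exon 6 lies higher without overlap in the quadriceps and with overlap in the gastrocnemius.

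At the 3′ end of Tnnt3, PSI was higher for exon 16 and lower for exon 17 in the flight quadriceps, though not past the adjusted threshold. Exon 16 over exon 17 stood at 0.516, 0.534 and 0.522 on the ground and 0.577, 0.656 and 0.611 after flight, on a mean of 21246 junction reads per sample. The ground samples lay close together below all flight samples, and the difference of 0.0905 ranked 4 of 2062 events by p (adjusted p = 0.536 by limma). The skipped-exon events are other views of that choice: exon 16 stood at 0.354, 0.372 and 0.368 and 0.423, 0.497 and 0.430 (difference 0.0854, adjusted p = 0.536), and exon 17 at 0.324, 0.311 and 0.329 and 0.283, 0.213 and 0.230 (difference -0.0793, adjusted p = 0.536), both without overlap. Both skipped-exon events count a junction between exons 16 and 17, which no annotated transcript that spans the pair holds. Their PSI is therefore not read as the level at which an exon is used. With precision weights the 3 views had adjusted p of 0.00728, 0.0329 and 0.0113 by limma.

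In the gastrocnemius the views of the choice gave differences of unequal size. Exon 16 alone and exon 17 alone are the skipped-exon events, whose PSI is again not a level of use. Exon 17 alone stood at 0.315, 0.259 and 0.272 on the ground and 0.233, 0.194 and 0.231 after flight, without overlap (difference -0.0628, adjusted p = 0.301 by limma). Exon 16 over 17 stood at 0.535, 0.604 and 0.588 and 0.625, 0.634 and 0.590, with overlap (difference 0.0405, adjusted p = 0.606). Exon 16 alone stood at 0.379, 0.449 and 0.431 and 0.461, 0.435 and 0.386, a difference of 0.0075 (adjusted p = 0.954). The flight effect on exon 16 alone, gastrocnemius minus quadriceps, was -0.0779 in PSI (adjusted p = 0.723), and on exon 16 over 17 it was -0.0500 (adjusted p = 0.787).

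The smallest p of any member event belonged to Tnnt3 exons 12 and 13 in the gastrocnemius. Exon 12 over 13 stood at 0.231, 0.254 and 0.259 on the ground and 0.188, 0.155 and 0.137 after flight, without overlap (difference -0.0878, adjusted p = 0.0639 by limma). In the quadriceps it stood at 0.209, 0.204 and 0.154 and 0.169, 0.134 and 0.1398, with overlap (difference -0.0415, adjusted p = 0.601). In the annotation, however, 24 of 24 transcripts that span this pair hold both exons, so its reads come from neighbouring junctions of one transcript and not from a choice between exons. The reads assigned to exon 12 stood at 5156, 6006 and 5827 on the ground and 6034, 5436 and 5452 after flight, whereas those assigned to exon 13 stood at 17171, 17675 and 16648 and at 26009, 29638 and 34298. The exon 12 reads were the same, within 0.0606% in all samples, as the reads counted for exon 11 in the pair 10 and 11. The pair passed by limma with 1 in place of 0.5 added to each count (adjusted p = 0.0227), with precision weights (0.00515), with all 12 samples in 1 fit (0.0322) and without the first flight sample (0.0499).

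The pairs 10 and 11, 11 and 12, and 13 and 14 are of the same kind, with both exons in every annotated transcript that spans them. Flight differences there ran from -0.0274 to 0.0339 in the gastrocnemius and from -0.0566 to 0.0374 in the quadriceps, with adjusted p of 0.650 or more by limma.

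Exon 5 of Tnnt1, the slow troponin T, rested on few reads. Its deeper event, with a mean of 122 junction reads per sample in the gastrocnemius, stood at 0.924, 0.985 and 0.915 on the ground and 0.895, 0.839 and 0.922 after flight, with overlap (difference -0.0561, adjusted p = 0.603 by limma). In the quadriceps, with a mean of 54.2 reads, it stood at 0.850, 0.845 and 1.00 and 0.890, 0.964 and 0.884 (difference 0.0143, adjusted p = 0.989). The other event of this exon was nearly as deep, with means of 117 and 52.3 reads, and joins exon 6 at chr7:4512283 in place of chr7:4512286. It differed by -0.0384 in the gastrocnemius and by 0.0974 in the quadriceps, and these flight effects differed by -0.136 in PSI (adjusted p = 0.723 by limma).

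Of the tropomyosins, Tpm1 was read at its 70-base exon chr9:67031029-67031098 and its neighbour, the 63-base exon chr9:67031452-67031514, which 18 of 19 annotated transcripts hold together. On the minus strand the 63-base exon comes first in the transcript, so PSI is its share. PSI was 0.691, 0.683 and 0.684 in the ground gastrocnemius and 0.692, 0.730 and 0.781 after flight, without overlap but with the first flight sample level with the ground (difference 0.0478, adjusted p = 0.524 by limma). In the quadriceps the difference was 0.0149 (adjusted p = 0.772). The matching Tpm2 pair, chr4:43518230-43518299 and chr4:43518402-43518464, which 3 of 5 transcripts hold together, was read as the share of the latter, its 63-base exon. It stood at 0.670, 0.667 and 0.664 on the ground and 0.683, 0.661 and 0.688 after flight in the gastrocnemius (difference 0.0101, adjusted p = 0.892). In the quadriceps it stood at 0.663, 0.656 and 0.676 and 0.687, 0.705 and 0.681, without overlap (difference 0.0262, adjusted p = 0.752). The remaining Tpm2 pair and its 76-base skipped exon differed by -0.0460 to 0.0193 over both muscles, with overlap of the groups.

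**Figure D5:**
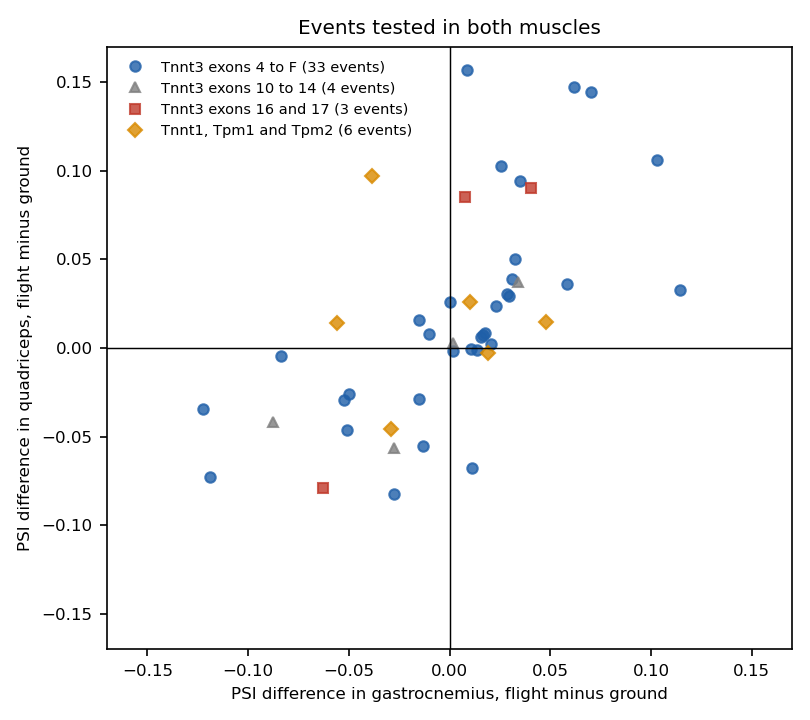
PSI difference of flight minus ground in the gastrocnemius (horizontal axis) and the quadriceps (vertical axis) for the member events tested in both muscles, one symbol per event, by gene region; events of Tnnt3 share reads. Exons 16 and 17 (squares) reach 0.0905 and -0.0793 in the quadriceps, and exon 8 between 5 and 9 lies at -0.119 and -0.0728.

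Counted by region, 9 of 35 events of the Tnnt3 5′ exons had an unadjusted p under 0.05 in the gastrocnemius and 7 of 34 in the quadriceps, and 1 of 3 and 3 of 3 of the exon 16 and 17 events. For the pairs between exons 10 and 14 it was 1 of 4 in each muscle. Over all events tested the share was 9.49% in the gastrocnemius and 7.61% in the quadriceps. Events of a region reuse the same junctions, so these counts are not of independent events. Of the 20 member events with an unadjusted p under 0.05 in either muscle, 3 had it in both, a count for which no share over all events was taken. In the comparison of flight effects between muscles none of 2011 events was called by limma (0%, with 6.56% at an unadjusted p under 0.05), and 3 of 48 member events had an unadjusted p under 0.05.

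Between the muscles on the ground, 5 of 48 member events passed by limma, where 6.81% of all events did, and 18 did not overlap, where 20.5% of all events did. They are named here after their values were seen. In the gastrocnemius Tnnt3 exon 6 between 5 and 9 was included less (0.701 ± 0.0302 against 0.819 ± 0.0164, difference -0.118, adjusted p = 0.0197), as was exon 8 between 5 and 9 (0.831 ± 0.0257 against 0.908 ± 0.00409, difference -0.0768, adjusted p = 0.0499). For the pair 7 and 8 between 6 and 9, the share of exon 7 was lower (0.818 ± 0.0371 against 0.884 ± 0.0180, difference -0.0666, adjusted p = 0.0372). Of 25 annotated transcripts that span this pair, 5 hold both exons and 5 hold neither, so it is not read as a choice between them. The pair 10 and 11, held together in 25 of 25 transcripts, differed by 0.0685 (0.313 ± 0.0141 against 0.245 ± 0.0243, adjusted p = 0.0166). Tnnt1 exon 5 was included more in the gastrocnemius in its event joined to exon 6 at chr7:4512283 (0.970 ± 0.0291 against 0.831 ± 0.0902, difference 0.139, adjusted p = 0.0330). Its event joined at chr7:4512286, of nearly the same depth, overlapped (0.941 ± 0.0381 against 0.898 ± 0.0881, difference 0.0431, adjusted p = 0.749).

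Exons 16 and F, which did not pass, differed between the ground muscles without overlap. Exon 16 over 17 averaged 0.576 ± 0.0361 in the gastrocnemius and 0.524 ± 0.00902 in the quadriceps (difference 0.0516, adjusted p = 0.265 by limma), and after flight 0.616 ± 0.0234 and 0.615 ± 0.0398. Exon F averaged 0.0935 ± 0.0211 and 0.180 ± 0.00938 (difference -0.0864, adjusted p = 0.136). When 1 sample was left out, between 1 and 5 events passed: 1 without the first or second gastrocnemius ground sample or the second quadriceps ground sample, 2 without the third gastrocnemius or first quadriceps ground sample, and 3 without the third quadriceps ground sample or the second quadriceps flight sample. Over all events 5.32 to 8.11% passed in those fits.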

How the data were processed

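The authors prepared stranded mRNA libraries, sequenced as single-end reads. The deposited TPM values were made by the authors with kallisto 0.46.0, summed per gene; read depth is unknown from them. The deposited splicing tables hold whole-number junction counts, which the authors obtained with STAR 2.7.1a on mm10 and rMATS-turbo, after removing poorly covered events. Their columns of the authors' own tests (p-values, false discovery rates, PSI differences) were not used. The 9 genes, exons and gene lists were chosen with earlier results of these data known.

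Expression was tested with limma 3.58.1 (R 4.3.3) on log2(TPM + 1), with a mean-variance trend, over 10481 genes above 5 TPM in at least 1 library; each muscle was fitted alone, and comparisons between muscles used all 12 libraries with the mouse as a block, because both muscles came from the same animal. The pairing check gave correlations of -0.12 to 0.33 between muscles of a mouse. A fold change on this scale understates that of low genes. Calls needed a Benjamini-Hochberg adjusted p under 0.05 and over 1.5-fold. Splicing was tested with limma on the log2 ratio of length-corrected inclusion and skipping counts, 0.5 added to each, for events with a mean above 10 reads in each group and PSI not at or below 0.05, or at or above 0.95, in all samples; samples there carry no mouse name, so no block was used. Scripts were checked on simulated data. All members were named. For each exon or pair the event with the most reads was taken, and those with the smallest p (up to 4 per gene and muscle) and the exons the study names were described; of each gene list, genes that passed, or else the 2 with the smallest p in the gastrocnemius. Smooth muscle, heart, fat, endothelium, blood, tendon, macrophage and skeletal muscle lists marked cell types; 1 further marker list is not reported here. Alternatives were another pseudocount, no filter, rescaling, no trend, a replicate block, one fit over all 12 samples, precision weights, a stricter read minimum and leaving out each library.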

Additional observations from a re-analysis of the deposited data

How the results depend on the processing

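With 3 mice a group, 133 genes were called in the gastrocnemius without flight replicate 1, against 24 with it, 4 without the filter on low TPM and 5 without the trend, and leaving out one library gave 0 to 1 members called there, Tnni1 being the 1. The replicate block, which pairs mice that share only a number (correlations of -0.18 to 0.11), left 0 members and 0 genes called in either muscle, and the block changed no call of a member. Other expression alternatives left the member calls at 0.

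Splicing calls among member events in the gastrocnemius went from 0 to 1 with 1 added to each count (0.567% of all events called), to 3 with precision weights (1.7%) and to 1 with all 12 samples in 1 fit (0.696%), and leaving out one sample gave 0 to 1 (0.0479 to 0.43%). In the quadriceps precision weights gave 5 (0.873%). Between the muscles, leaving out one sample gave 1 to 5 (5.32 to 8.11%). The cause was not tested.

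Leaving out one library or sample reversed the direction of values near 0 or resting on 1 library. The log2 fold change ranged from -0.13 to 0.0607 for Tpm2 in the gastrocnemius and, in the quadriceps, from -0.38 to 0.36 for Tnnt1, from -0.60 to 0.0633 for Tnnc1 and from -0.0529 to 0.66 for Tpm3. The PSI difference ranged from -0.0128 to 0.0281 for Tnnt3 exon 16 and from -0.0583 to 0.00170 for the Tpm2 76-base exon in the gastrocnemius, and, in the quadriceps, from -0.124 to 0.0460 for the latter, from -0.0125 to 0.0651 for Tnnt1 exon 5 and from -0.0119 to 0.00826 for the Tpm2 63-base and 76-base pair.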
